A study of Malus hupehensis and Malus pumila and Malus sylvestris with 10 samples.

Results

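A set of 3 genes known from ripening apple fruit was looked up in the phloem transcriptome of a growing apple rootstock: the ethylene synthesis genes ACS1 (MD15G1302200) and ACO1 (MD10G1328100), and the polygalacturonase gene PG1 (MD10G1179100). They were chosen by gene ID. No value measured here entered that rule, but earlier results of these data were known when the choice was made. The names belong to that choice, since the table itself lists IDs without names. Of the 3 genes, 2 had values, ACO1 and PG1, out of 38700 IDs in all, and ACS1 was not analysed here. Neither ACO1 nor PG1 was found at more than a trace: no library held either gene at 1 FPKM, the level taken here as detected, and each gene was listed at 0 in 1 of the 2 libraries.

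The series sampled phloem, the tissue that moves sugars from leaves to the rest of the tree, in 5 kinds of apple rootstock with 2 samples each, 60 days after bud break. Values described here come from the 2 samples of Malus sylvestris, a crab apple that the labels give as wild type and as a control of the vigorous class. The other 8 samples, of A1d, B9, M9 and PYTC, were not analysed here. The labels give no treatment and do not say how old the plants were, whether the samples came from separate plants, or whether tissue was pooled. Any difference between them may therefore be technical. No fruit sample belongs to the series, and the levels below are therefore set against the other genes of phloem and not against fruit. The tissue label could not be checked against phloem markers without gene names.

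Ethylene is the gas hormone that drives ripening in climacteric fruit such as apple. Plants make it from S-adenosylmethionine in steps run by ACC synthase, which forms the precursor ACC, and ACC oxidase, which turns ACC into ethylene. In apple, ACS1 and ACO1 are the copies known for the burst of ethylene in ripening fruit, and PG1 encodes a pectin-cutting enzyme of the cell wall that is linked to fruit softening. Both enzymes of ethylene synthesis and polygalacturonases occur as gene families in plants. Values of ACO1 or PG1 thus say nothing of ethylene synthesis or pectin breakdown by other copies.

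Levels are in FPKM, fragment numbers that the authors corrected for gene length and for library depth. Library 2 rested on an inferred 16572066 fragments and library 1 on 18538960, read from the steps between low values. Over all IDs, the median level was 4.45 FPKM in library 2, against 4.66 FPKM in library 1.

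ACO1 was found in library 1 alone. The table listed it at 0 FPKM in library 2 and at 0.219 FPKM in library 1. The value in library 1 came from 5 fragments on a recovered gene length of 1233 bases (95% exact Poisson interval of the level 0.0710 to 0.510 FPKM). No fragment was recovered in library 2, which allows a level of up to 0.147 FPKM at the limit of 3 fragments. That limit is one-sided, unlike the two-sided intervals given for counts above 0. A gene of that length at 1 FPKM would have given 20.4 fragments in library 2 and 22.9 in library 1. In both libraries the level of ACO1 therefore lay under 1 FPKM by more than the counting error.

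PG1 was lower still in the mean and rested on a single fragment. It stood at 0.0341 FPKM in library 2 and was listed at 0 FPKM in library 1. The fragment in library 2 fell on a recovered length of 1770 bases (95% exact Poisson interval of the level 0.000863 to 0.190 FPKM). In library 1 a count of 0 allows up to 0.0914 FPKM at the same one-sided limit. At 1 FPKM a gene of this length would have given 29.3 fragments in library 2 and 32.8 in library 1, so PG1 too lay under that level by more than the counting error. These intervals and limits cover counting error only.

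**Figure D1:**
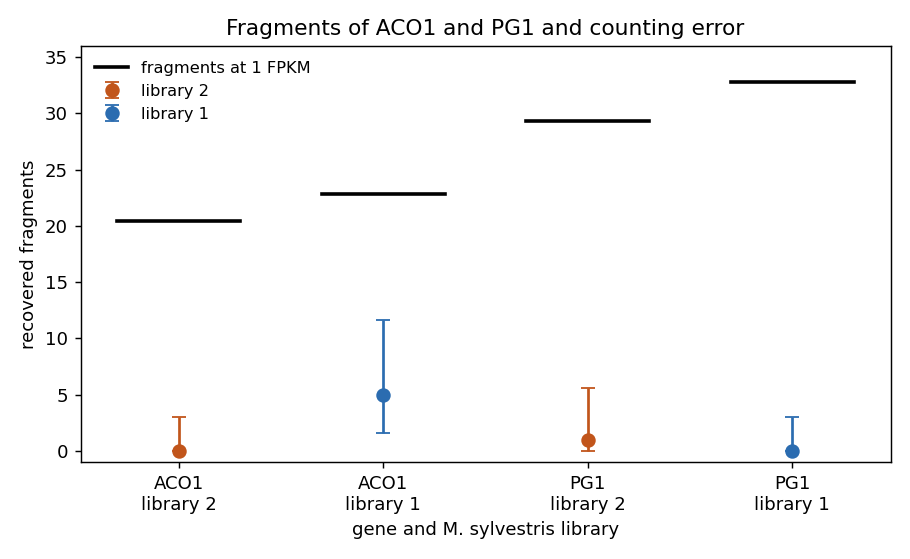
Recovered fragments (vertical axis) of ACO1 and PG1 in each M. sylvestris library, library 2 left of library 1. Points are the fragments, bars the two-sided 95% exact Poisson interval or, for a count of 0, the one-sided limit of 3 fragments, and black lines the fragments that 1 FPKM would have given. All 4 bars end below their black line.

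Both genes stood near the lower end of the phloem transcriptome. By its mean over both libraries, 0.109 FPKM, ACO1 ranked 33245 of 38700 IDs, with 85.9% of IDs above it and 14.1% below. PG1, with a mean of 0.0170 FPKM, ranked 35685, with 92.2% of IDs above it and 7.79% below. The mean of the median ID, 4.57 FPKM, was 41.8 times that of ACO1 and 268 times that of PG1. Of the 35889 IDs above 0 in at least 1 library, 2643 (7.36%) had a lower mean than ACO1, and 204 (0.568%) had a lower mean than PG1. Of all IDs, 67.9% reached 1 FPKM in both libraries, against 0 of the 2 genes, and 86.2% of all IDs were above 0 in both, again against 0 of the 2.

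**Figure D2:**
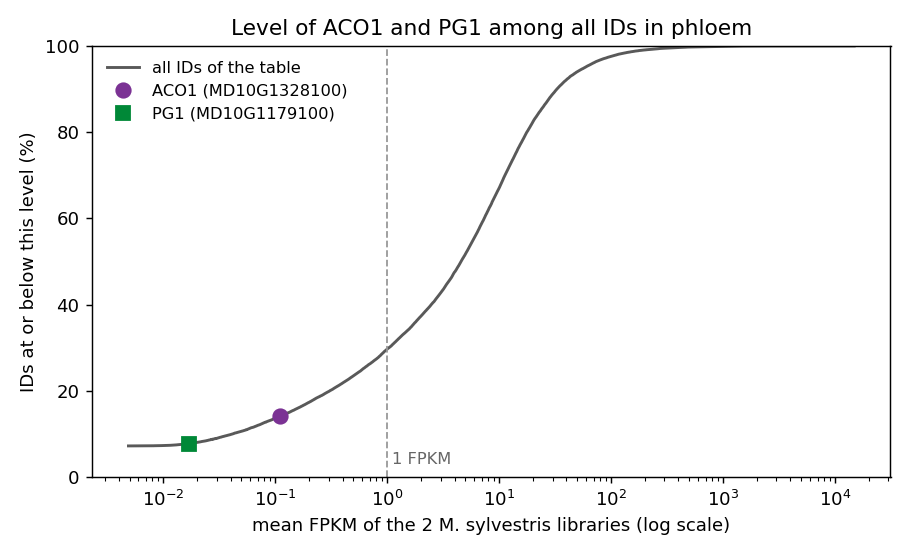
Share of all 38700 IDs at or below each level (vertical axis, percent) against the mean FPKM of the 2 M. sylvestris libraries (horizontal log axis; 2811 IDs at 0 in both libraries are counted but have no place on the axis). ACO1 (circle) and PG1 (square) lie on the flat lower part of the curve, left of the dashed line at 1 FPKM.

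The order of ACO1 and PG1 was not settled by these libraries. In library 2 PG1 was above ACO1, at 0.0341 FPKM against a listed 0, and in library 1 ACO1 was above PG1, at 0.219 FPKM against a listed 0. Over both libraries together, 5 fragments gave ACO1 a level of 0.115 FPKM (95% exact Poisson interval 0.0375 to 0.270), and 1 fragment gave PG1 0.0161 FPKM (0.000407 to 0.0897). The intervals overlapped.

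Being listed at 0 in 1 library and above 0 in the other was a pattern that ACO1 and PG1 shared with 6.52% of all IDs. It was found for 2523 IDs, of which 1515 were at 0 in library 2 and 1008 at 0 in library 1. A further 2811 IDs (7.26%) were at 0 in both. IDs at 0 in library 2 alone had a median of 0.115 FPKM in library 1, and that of ACO1 was higher, at 0.219 FPKM. IDs at 0 in library 1 alone had a median of 0.111 FPKM in library 2, and that of PG1 was lower, at 0.0341 FPKM. A value of 0 was not limited to traces: the highest level in library 1 among IDs at 0 in library 2 was 12.2 FPKM.

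Whether the libraries differed in either gene was not settled at this depth. As log2(FPKM + 1), library 2 minus library 1, the difference was -0.29 for ACO1 and 0.05 for PG1. Neither gene reached the 10 fragments set for the exact binomial test, which sets 1 library against 1 library and covers counting error only. In that test 15.3% of the 30618 IDs tested were called. With every ID of 1 or more fragments tested, 12.6% of 35889 IDs were called. There the two-sided exact binomial test gave p = 0.0645 for ACO1 and p = 0.472 for PG1, with Benjamini-Hochberg adjusted values of 0.260 and 0.784. These values rest on the fewest fragments that the FPKM allow. At the next longer length that gives whole fragments, 2466 bases, ACO1 would have 0 fragments in library 2 and 10 in library 1, and the exact binomial test would call it, with p = 0.00223 and an adjusted p of 0.0222. PG1 would have 2 fragments in library 2 and 0 in library 1 at 3540 bases, with an exact binomial p of 0.223 and an adjusted p of 0.545.

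Other IDs with as few fragments were also found at 0 in the other library. Of the 526 IDs with 5 recovered fragments in library 1, the number found for ACO1, 52 (9.89%) had 0 in library 2. The median of the 526 was 4 fragments in library 2. Of the 1937 IDs with 1 fragment in library 2, the number found for PG1, 755 (39.0%) had 0 in library 1, and the median was 1 fragment. The recovery keeps the fewest possible fragments, and an ID at 0 in 1 library is more readily reduced to fewer. These shares therefore depend in part on the recovery itself.

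**Figure D3:**
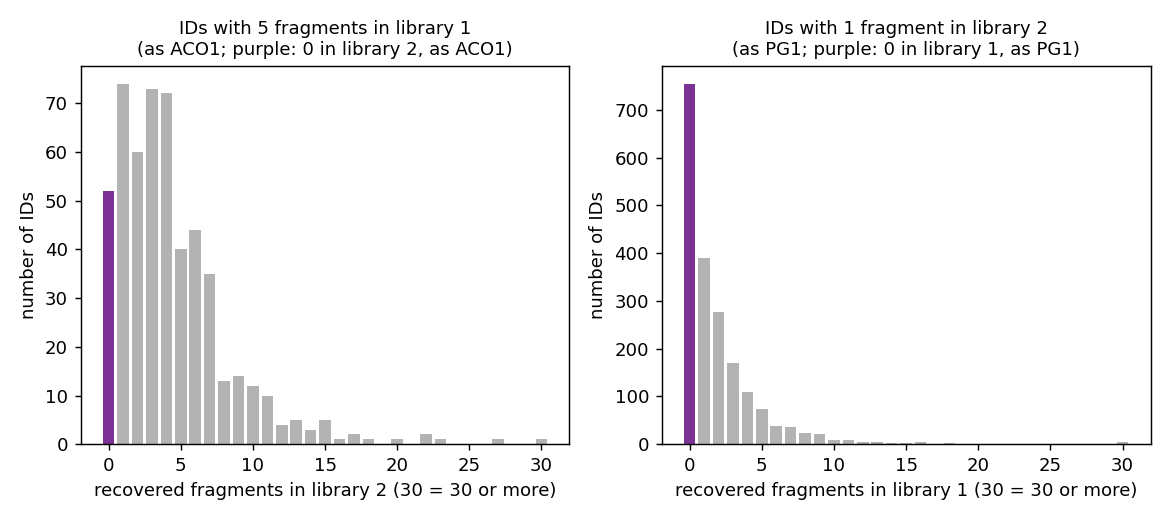
Number of IDs (vertical axis) by recovered fragments in the other library (horizontal axis), for IDs with 5 fragments in library 1 on the left and with 1 fragment in library 2 on the right. Purple bars are IDs at 0 in the other library, where ACO1 and PG1 themselves lie: 52 of 526 on the left and 755 of 1937 on the right.

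Most IDs next to ACO1 and PG1 in the table had far higher levels in the same libraries. Beside ACO1, library 2 had MD10G1328000 at 2.91 FPKM and library 1 had it at 3.12 FPKM. MD10G1328200, on the other side, had 12.8 FPKM in library 2, with 12.5 FPKM in library 1. One place further out, MD10G1327900 reached 185 FPKM in library 2 and 152 FPKM in library 1, and MD10G1328400 had 2.75 FPKM in library 2 and 2.83 FPKM in library 1. ACO1 was thus the lowest of these 5 IDs in both libraries.

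Beside PG1, library 2 had MD10G1179000 at 10.5 FPKM and library 1 had it at 10.1 FPKM. On the other side, the level of MD10G1179200 was 10.2 FPKM in library 2, with 11.2 FPKM in library 1. One place further out, MD10G1179300 had 28.1 FPKM in library 2 and 22.2 FPKM in library 1, and MD10G1178900 had 0.599 FPKM in library 2 and 0.535 FPKM in library 1. PG1 was likewise the lowest of its 5 IDs in both libraries. Of the 8 neighbours, 7 reached 1 FPKM in both libraries, beside 67.9% of all IDs. In the exact binomial test with 10 or more fragments, 1 of the 8 was called, MD10G1327900, with a Benjamini-Hochberg adjusted p of 1.51e-18, beside 15.3% of all IDs tested. That p covers counting error and has no replicate check. No gene names were at hand for these 8 IDs.

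A wider window also held IDs at traces. Of the 20 IDs within 10 places of ACO1, 16 had a higher mean and 4 a lower one, and 14 reached 1 FPKM in both libraries. Of the 20 IDs within 10 places of PG1, all 20 had a higher mean, and 10 reached 1 FPKM in both libraries. The median of the mean levels was 2.97 FPKM around ACO1 and 1.31 FPKM around PG1, against 4.57 FPKM over all IDs. Among the 2542 IDs that begin with MD10, as both genes do, 1708 (67.2%) reached 1 FPKM in both libraries, beside 67.9% of all IDs. Of these 2542 IDs, 2156 had a higher mean than ACO1 and 2331 a higher mean than PG1. Over all IDs, 85.9% had a higher mean than ACO1 and 92.2% a higher mean than PG1.

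**Figure D4:**
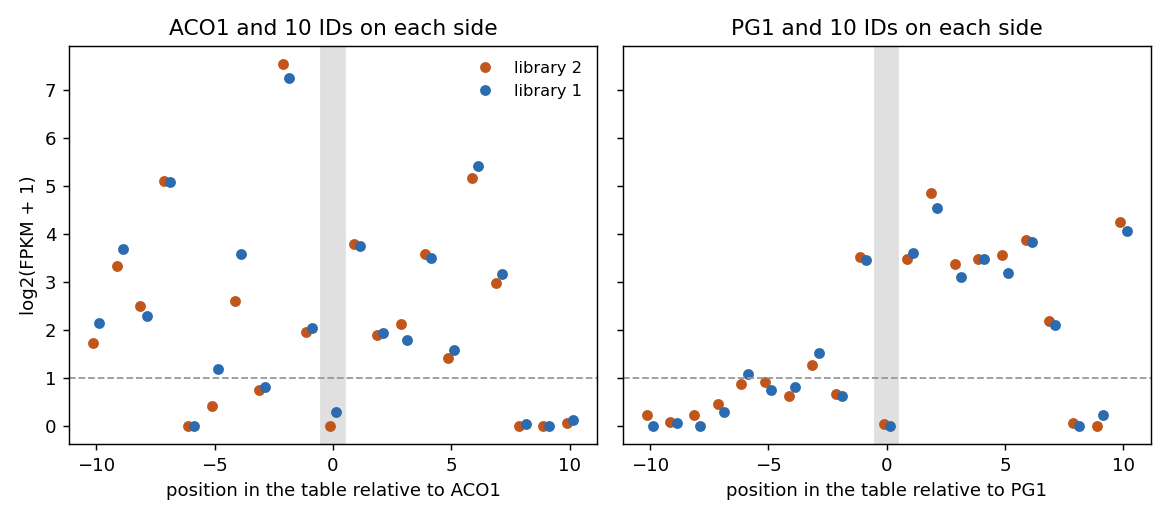
Level in log2(FPKM + 1) (vertical axis) of ACO1, PG1 and the 10 IDs on each side of them in the table (horizontal axis, place relative to the gene), with library 2 drawn left of library 1. The grey bands mark ACO1 and PG1, which lie at or near 0, while their nearest neighbours on each side lie above the dashed line at 1 FPKM.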

How the data were processed

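Phloem RNA of 2 M. sylvestris samples was measured by RNA sequencing. Per the labels' protocols, total RNA was made into stranded libraries of polyadenylated RNA. The submitters' processing notes list HTSeq, Cufflinks, HISAT2 and Trimmomatic but give neither versions nor roles. The deposited values are FPKM, scaled by the authors to gene length and library total. For genome build, annotation and the counting of reads shared by gene copies, the sources used here state nothing, and whether reads of ACO1 or PG1 were given to a near-identical copy was not tested.

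Library totals were inferred from the steps between low FPKM values. Lengths from 50 to 30000 bases were then tried for each ID, and the shortest one kept at which the fragments of both libraries were whole. The tolerance for this was 2 times the largest rounding error of the last printed digit. All 35889 IDs above 0 came out whole (100%). Fragments are the fewest possible: the next length gives 10 for ACO1 and 2 for PG1. The recovery was also run on simulated data that reused the recovered lengths. That run is no separate check of the fragments of ACO1 and PG1.

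Fragments were tested with a two-sided exact binomial test against the ratio of totals over all IDs with 10 or more (adjusted p under 0.05). Means are over 2 libraries. No SD is given where a library is listed at 0. Python 3.11.15, numpy 2.4.6 and scipy 1.17.1 were used. Named IDs were the listed genes and the 2 IDs on each side. IDs of like level were to be named only for genes above 0 in both libraries, and none was. Gene families, phloem markers and sequences could not be looked up without an annotation. Genes and lists were chosen with earlier results of these data known, and the window of 10 IDs, the groups of equal fragments and the next longer lengths after their values were seen.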

Additional observations from a re-analysis of the deposited data

How the results depend on the processing

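Since each gene is listed at 0 in 1 library, the count of 0 of 2 genes detected in both libraries is fixed at floors of 0.1, 0.5, 1 and 5 FPKM, at any value above 0 and at 10 recovered fragments. At the floor of 0.1 FPKM, ACO1 passed in library 1 with 0.219 FPKM. With either library alone, 0 of 2 reached 1 FPKM. Over these settings the background ran from 17922 to 33366 of 38700 IDs. With 1 library alone, the share of IDs with a lower level ran from 0 to 17.6% for ACO1 and from 0 to 11.8% for PG1. Each share of 0 there was a tie: ACO1 shared 0 FPKM in library 2 with 4325 other IDs, and PG1 in library 1 with 3818. The share was also 0 for both when ranked only against IDs whose mean reached 1 FPKM, since neither gene does. The log2 difference between the libraries followed the pseudocount: for library 2 minus library 1 it was -1.67 for ACO1 and 0.42 for PG1 with 0.1, and -4.52 and 2.14 with 0.01. Rescaling both libraries to the same sum gave a mean of 0.166 TPM for ACO1 and 0.0256 TPM for PG1, against 0.109 and 0.0170 FPKM. The next longer length that gives whole fragments would lower the upper limit of ACO1 in library 1 to 0.402 FPKM and of PG1 in library 2 to 0.123 FPKM. It would also give ACO1 10 fragments, and 1 of the 2 genes, ACO1, would then be called different between the libraries (exact binomial test, adjusted p = 0.0222), an alternative chosen after seeing the data. The exact binomial test called from 4515 to 4698 IDs over the filters, tolerances and depth ratios tried, of which the filter of any fragments alone tested ACO1 and PG1 and called neither. No paired analysis was possible because values of 1 group alone were used. Family lists were not run for want of gene names.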
